A study of Mus musculus with 3 samples.

Results

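The transcription factors Oct4 (gene Pou5f1), Sox2, Klf4 and c-Myc (gene Myc) together with the Myc-Max network were described in 3 myoblast lines that came from reprogrammed cells. The genes were taken by name, whatever their level, and all 10 of them were found among the 35562 genes of the deposited tables: Pou5f1, Sox2, Klf4, Myc, its paralogs Mycn and Mycl, their partner Max, and the Max-binding repressors Mxd1, Mxd3 and Mxi1. Values of every transcript of a gene were summed.

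The 3 libraries (lines 66, 67 and 72) form 1 group of edited Dmdmdx; Pax7-nGFP myoblasts. Embryonic fibroblasts that carried the mdx mutation of dystrophin and 1 copy of the Pax7-nGFP reporter had been reprogrammed to induced pluripotent stem cells (iPSCs) with the polycistronic STEMCCA cassette and small molecules. The dystrophin gene was then edited with CRISPR/Cas9 so that the mutated exon is skipped, and the cells were injected into mouse blastocysts whose own Pax7-expressing cells can be killed by tamoxifen (Pax7 CreERT2; Rosa26 lsl-DTA). Satellite cells, which regenerate muscle, were sorted from muscles of chimeras of 5 or more weeks of age by the nuclear GFP driven from Pax7 and grown as myoblasts. All 3 lines therefore share the reprogramming history, the edit and the reporter. The labels do not say which lines came from tamoxifen-injected animals, and nothing states that the lines came from separate animals, so any p-value measures only the spread between these libraries. There is no untreated or non-reprogrammed group here, so no comparison between conditions was made.

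Oct4, Sox2 and Klf4 are DNA-binding factors that, expressed together with c-Myc, return somatic cells to pluripotency. In embryonic stem cells Oct4 and Sox2 bind side by side and keep the pluripotency genes, including their own, active, and both are normally silent in muscle cells. Myc proteins act only as a pair with Max, through a basic helix-loop-helix leucine zipper that grips the E-box of DNA and raises genes of growth, ribosome production and metabolism. Mxd proteins and Mxi1 pair with the same Max at the same sites and recruit co-repressors, so the balance of Max partners is what the network is known for. In muscle, Myc is known from dividing myoblasts and Klf4 from mesenchymal and smooth muscle cells.

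The estimated counts of lines 66, 67 and 72 summed to 73274315, 66972426 and 70272367. Levels below are transcripts per 1000000 (TPM), which are scaled by transcript length and can be compared between genes, whereas counts per 1000000 (CPM) are not. Of all genes, 25510 had a count in at least 1 line, and their median level was 0.861 TPM. A count of 3 corresponds to 0.0409 to 0.0448 CPM in these libraries, and intervals and such floors cover counting error only. All 7 myoblast markers checked (Pax7, Myf5, Myod1, Des, Cdh15, Itga7 and Chrna1) stood above 10 TPM in every line with a median of 288 TPM. Of 6 fibroblast markers, 5 were below 1 TPM in every line, as were 3 of 4 immune and 4 of 4 endothelial markers, beside 63.5% of all genes.

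Pou5f1 was present at a low but measurable level in every myoblast line. The gene (ENSMUSG00000024406.16, GRCm38 chr17:35506018-35510772, plus strand) encodes Oct4, the POU-domain factor on which pluripotency depends. It had 9.46 TPM in line 66, 10.2 in line 67 and 11.2 in line 72, a mean of 10.3 ± 0.876 (SD, n = 3), at the 67.3rd percentile of detected genes. The 3 lines lay close together, and these levels rest on 465, 481 and 457 counts. In CPM the same libraries had 6.35 (95% exact Poisson interval 5.78 to 6.95), 7.18 (6.55 to 7.85) and 6.50 (5.92 to 7.13), so line 72 was the highest in TPM and line 67 in CPM.

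Nearly all of the Pou5f1 counts were assigned to Pou5f1-201, the full-length transcript of 1362 bases and 5 exons. Its share in lines 66, 67 and 72 was 92.3%, 93.4% and 88.4%. Pou5f1-203, a listed transcript of 462 bases that starts downstream of exon 1, held 7.69%, 6.56% and 8.92%. Because it is short, this transcript made up 30.6%, 27.4% and 31.8% of the gene's TPM. Only 30 of its 432 words of 31 bases (6.94%) occur in no other listed transcript, so its share rests on a small stretch. Pou5f1-201 alone had 6.57, 7.37 and 6.48 TPM, in which line 72 was the lowest. Pou5f1-202 held 2.63% of the counts in line 72 and none in lines 66 and 67, and Pou5f1-204, Pou5f1-205 and Pou5f1-206 were listed at 0 in all 3 lines.

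**Figure D1:**
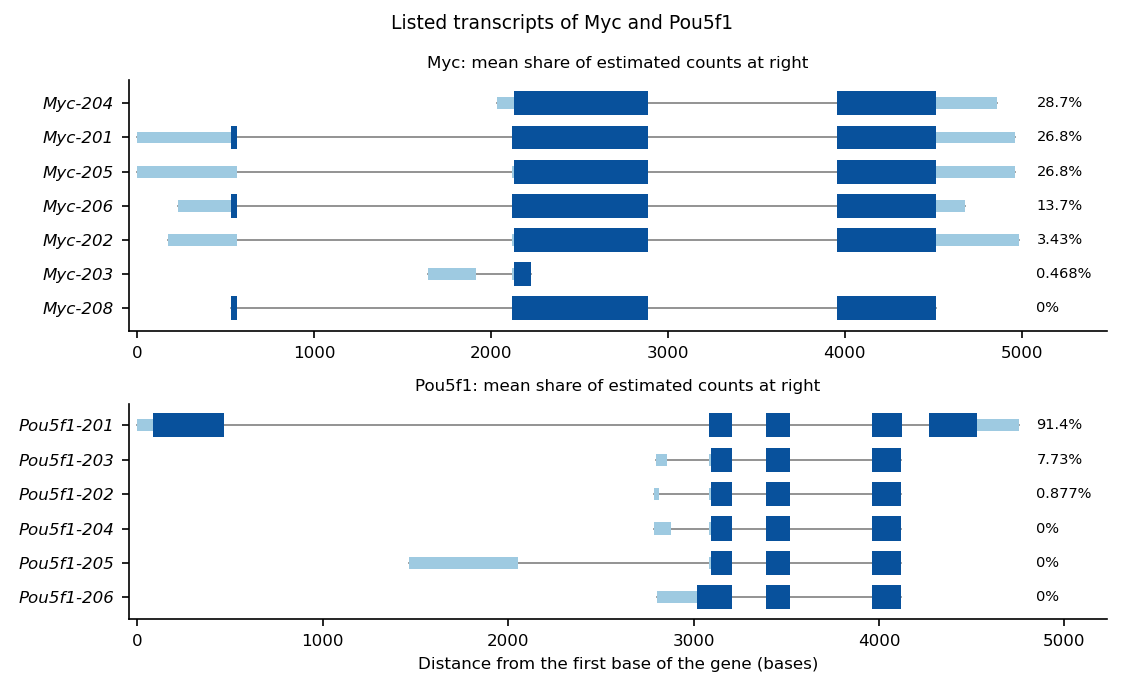
Listed transcripts of Myc and Pou5f1 drawn to scale by distance from the first base of the gene, in bases (wide bars, coding exon parts; narrow bars, other exon parts; grey lines, introns), with the mean share of the gene's estimated counts over 3 lines at the right. Pou5f1-201 holds 91.4% of the Pou5f1 counts, whereas Myc counts are spread over Myc-204 (28.7%), Myc-201 and Myc-205 (26.8% each) and Myc-206 (13.7%).

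Sox2 was lower than Pou5f1 in each line. It encodes an HMG-box factor that partners Oct4 and also marks neural progenitors (ENSMUSG00000074637.7, GRCm38 chr3:34650405-34652461, plus strand, a single exon). Lines 66, 67 and 72 had 4.02, 4.62 and 4.95 TPM of it, a mean of 4.53 ± 0.472 (SD, n = 3), from 348, 366 and 394 counts. The lines did not overlap those of Pou5f1, and the Pou5f1 level was 2.36, 2.201 and 2.26 times that of Sox2. On the log2(TPM + 1) scale the difference was 1.03 ± 0.04 (SD, n = 3), higher in 3 of 3 lines, with p = 0.25 in a two-sided exact sign-flip test, the smallest value that 3 lines allow. Pou5f1-201 alone was also above Sox2 in each line, but the difference was then 0.50 on the same scale. Sox2 has 1 listed transcript, Sox2-201 of 2057 bases, which held all of its counts. Sox2 lies within Sox2ot, a long noncoding gene on the same strand, which itself had 19.8, 23.9 and 17.0 counts.

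Klf4 was higher than both and varied most between lines among the 4 cassette factors. It encodes a zinc-finger factor also used outside pluripotency, in epithelial and mesenchymal cells (ENSMUSG00000003032.8, GRCm38 chr4:55527143-55532466, minus strand). Line 66 had 28.0 TPM, line 67 had 34.6 and line 72 had 20.6, a mean of 27.7 ± 7.02 (SD, n = 3), with line 67 at 1.68 times line 72. The counts were 4206, 4708 and 2929. Klf4-201, of 3029 bases, held 99.5%, 99.0% and 99.7% of them. Klf4-203 held 0.516%, 1.01% and 0.309%, and Klf4-202 was at 0.

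Myc was the most abundant of the 10 genes. The gene (ENSMUSG00000022346.15, GRCm38 chr15:61985391-61990374, plus strand) had 61.5, 70.1 and 70.0 TPM in lines 66, 67 and 72. The mean was 67.2 ± 4.94 (SD, n = 3), at the 90.4th percentile of detected genes, from 5880, 6200 and 6365 counts. Lines 67 and 72 were nearly equal, and line 66 was the lowest. Its first place held in CPM, but by the most counted transcript alone Klf4 and Max stood above it, and with Myc-201 and Myc-205 added up it was first again by the mean (30.7 TPM, beside 27.0 for Klf4-201).

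Unlike the counts of the other 3 factors, those of Myc were spread over several listed transcripts. Myc-201 and Myc-205 have the same sequence and differ only in the annotated start codon, so each was given the same number of counts, 26.1%, 28.4% and 26.1% of the gene. Together they held 52.1%, 56.8% and 52.1%. Myc-204, of 1765 bases, begins just ahead of exon 2 and lacks exon 1, and held 30.1%, 26.8% and 29.3%. Only 84 of its 1735 words of 31 bases (4.84%) occur in no other listed transcript. Myc-206, a shorter form of the same 3 exons with no word of its own, held 13.5%, 12.2% and 15.4%, and Myc-202 held 3.87%, 3.74% and 2.67%. Myc-203 had under 1% in each line. Transcripts with exon 1 held 69.5%, 72.8% and 70.2% of the Myc counts, so the split was alike in the 3 lines. Myc-208, which is listed as coding sequence alone (1362 bases), was at 0 in every line. None of its 1332 words is its own, so this value does not show that such RNA was absent.

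The STEMCCA cassette carries coding sequences of the same 4 factors, and none of the 121798 listed transcripts is named for it, since all carry mouse Ensembl identifiers. The cassette sequence was not at hand, so whether its coding sequences match the listed transcripts was not checked. Where they match, reads from the cassette and the chromosomal genes would be assigned to the same transcripts. The 2 sources then cannot be told apart in these sums. Because a cassette would share only the coding part, counts were also divided by the length of the longest coding sequence, which is 1059 bases for Pou5f1, 960 for Sox2, 1452 for Klf4 and 1365 for Myc. On this scale Pou5f1 had 439, 454 and 432 counts per coding kilobase in lines 66, 67 and 72, and Sox2 had 363, 381 and 410. The ratio of Sox2 to Pou5f1 was 0.826, 0.839 and 0.951, a mean of 0.872 ± 0.0688 (SD, n = 3). Klf4 stood at 6.60, 7.14 and 4.67 times Pou5f1 (6.14 ± 1.30), and Myc at 9.81 to 10.8 times (10.2 ± 0.528). Per coding kilobase, Pou5f1 and Sox2 thus lay close to each other, with Klf4 and Myc several-fold above them. These ratios depend on how much of each gene's reads lies outside its coding part. In TPM the ratios to Pou5f1 were 0.44 for Sox2, 2.74 for Klf4 and 6.55 for Myc. With the most counted transcript of each gene the Myc ratio per coding kilobase was 3.21, and 5.995 when Myc-201 and Myc-205 were added up.

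Genes that work beside Oct4 and Sox2 in pluripotent cells were mostly near 0. Of 22 genes of the pluripotency network, 18 were below 1 TPM in every line, 14 had at most 3 counts in every line and 7 had none. Of all 35562 genes, 63.5% were below 1 TPM in every line, 40.4% had at most 3 counts in every line and 28.3% had none, beside 81.8%, 63.6% and 31.8% of this list. The median was 0.035 TPM over the list and 0.0958 over all genes, and 0.0582 and 0.861 over those detected. Nanog, the homeobox factor that stabilises pluripotency, had 0.372, 0.161 and 0.346 TPM, and Zfp42, a marker of naive pluripotent cells, had 2, 1 and 1 counts. Tbx3, a T-box factor also found in limb mesenchyme, was the only gene of the list above 1 TPM in all 3 lines, with 4.20, 3.96 and 2.68. Esrrb, an orphan nuclear receptor, followed with 1.246, 0.981 and 2.12 TPM. Dppa4 and Sall4 were among those listed at 0 counts. Of these 22 genes, none had a mean as high as that of Pou5f1 or Sox2. Whether a cassette, the chromosomal genes or a minority of cells gave the Pou5f1 and Sox2 counts was not tested, and in bulk RNA fewer expressing cells and less RNA per cell cannot be told apart.

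Relatives of the factors were measured in the same way. Among 14 other POU genes, 11 were below 1 TPM in every line, beside 63.5% of all genes. Pou6f1 (9.41 TPM) and Pou2f1 (9.18), which are broadly expressed, had the highest means, beside the 10.3 of Pou5f1. Their lines overlapped those of Pou5f1, with Pou2f1 at 11.3 in line 67 and Pou6f1 at 11.4 in line 72, each above Pou5f1 in that line. Pou4f2 had at most 1 count in a line and Pou4f3 was listed at 0. Of 19 other Sox genes, 12 were below 1 TPM in every line, near the 63.5% of all genes. Sox4 (50.2) and Sox11 (30.6), SoxC factors of progenitor cells, were the highest and stood above Sox2, while Sox3, of the same SoxB1 group as Sox2, was listed at 0, as were Sox14 and Sox17. Of 16 other Klf genes, 6 were at 10 TPM or more in every line. Klf10, a TGF-beta-responsive repressor, had 78.2 and Klf6 had 41.8, both above Klf4, while Klf15 had 5, 4 and 5 counts and Klf17 was listed at 0. Klf2, which is known from endothelial cells, had 22.1, 14.7 and 11.99 TPM, and Klf5 had 14.1, 20.5 and 21.6, so the lines were over 1.5-fold apart for each but in opposite order, with line 66 the highest for Klf2 and the lowest for Klf5.

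**Figure D2:**
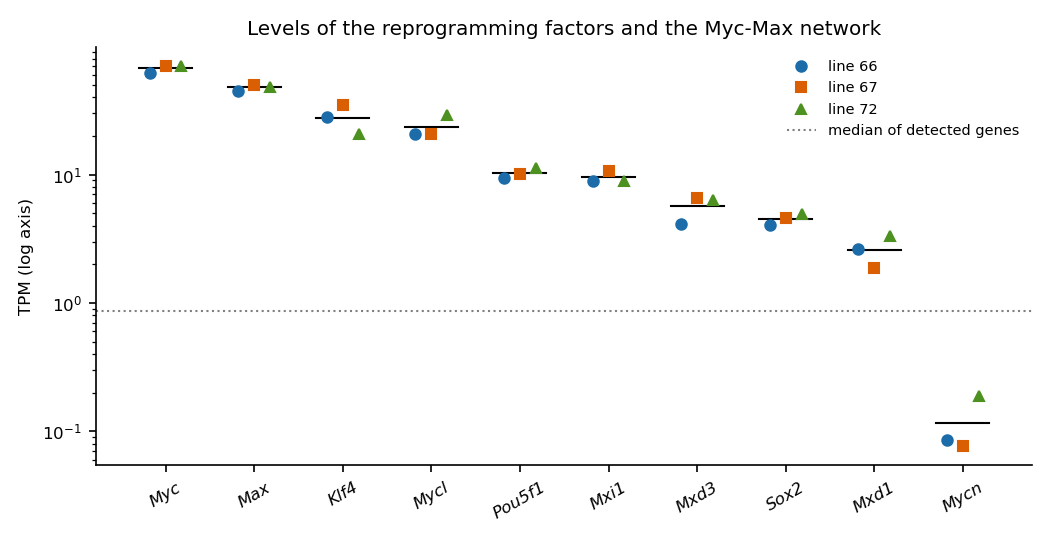
TPM on a log axis of each of the 10 genes in each line (symbols), with the mean of 3 lines (bars) and the median of all detected genes (dotted line, 0.861 TPM). Myc and Max lie above all others in every line, and Mycn is the only gene below the dotted line.

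Members of the Myc-Max network meet DNA with the same short basic region. The coding stretch of 75 bases that holds its start in the most counted transcript of each gene is printed here, since it is the part that Myc, its paralogs, Max and the repressors share. Capitals mark the codons of the histidine, glutamate and arginine that touch the E-box. The sequences were read from GENCODE M21 transcripts, 5′ to 3′ in the direction of the gene, on GRCm38.
Myc (chr15:61989651-61989725, plus strand, exon 2 of Myc-204): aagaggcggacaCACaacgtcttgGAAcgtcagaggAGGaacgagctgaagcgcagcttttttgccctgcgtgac
Mycn (chr12:12937183-12937257, minus strand, exon 2 of Mycn-202): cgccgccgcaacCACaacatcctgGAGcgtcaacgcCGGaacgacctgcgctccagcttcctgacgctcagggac
Mycl (chr4:123000264-123000338, plus strand, exon 3 of Mycl-202): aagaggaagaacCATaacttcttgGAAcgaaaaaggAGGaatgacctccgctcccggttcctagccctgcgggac
Max (chr12:76953196-76953270, minus strand, exon 2 of Max-201): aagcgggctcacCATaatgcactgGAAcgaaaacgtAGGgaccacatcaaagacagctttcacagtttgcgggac
Mxd1 (chr6:86653160-86668542, minus strand, exons 2 to 4 of Mxd1-201): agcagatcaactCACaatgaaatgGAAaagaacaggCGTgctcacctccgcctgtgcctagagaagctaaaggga
Mxd3 (chr13:55328445-55329273, minus strand, exons 2 to 4 of Mxd3-201): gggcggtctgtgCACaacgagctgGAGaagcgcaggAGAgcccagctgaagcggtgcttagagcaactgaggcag
Mxi1 (chr19:53331479-53369581, plus strand, exons 2 to 4 of Mxi1-203): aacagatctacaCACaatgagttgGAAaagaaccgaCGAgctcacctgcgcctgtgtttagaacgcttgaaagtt

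Across the 21 pairs of these stretches, 38.7% (Mycl and Mxd3) to 73.3% (Mxd1 and Mxi1) of bases were identical. Myc shared 69.3% with Mycl, 61.3% with Mycn and 56.0% with Max. The stretches of the 3 repressors each run over 3 exons, whereas those of the Myc genes and Max lie in a single exon. The longest identical run in any pair was 11 bases, and no word of 31 bases was shared between any of the 10 genes over their whole transcripts. Exact words of that length therefore tell Myc, Mycn and Mycl apart wherever a read falls.

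Among the Myc paralogs, Myc took most of the summed level, Mycl nearly all of the rest, and Mycn almost none. Mycl (ENSMUSG00000028654.13, GRCm38 chr4:122995652-123002485, plus strand), the L-Myc gene, had 20.8 TPM in line 66, 20.8 in line 67 and 29.0 in line 72, a mean of 23.5 ± 4.75 (SD, n = 3), with line 72 the highest. Mycl-202 held 72.6%, 72.4% and 73.2% of its counts and Mycl-201 held 26.9%, 27.1% and 26.1%. Mycn (ENSMUSG00000037169.15, GRCm38 chr12:12936093-12941914, minus strand), the N-Myc gene of neural and other embryonic progenitors, had 11, 6 and 23 counts, which are above the floor of 3. Mycn-202 held all of these counts in lines 66 and 72 and none in line 67, where Mycn-201 held 5 of the 6. The CPM of Mycn was 0.150 (95% exact Poisson interval 0.0749 to 0.269), 0.0896 (0.0329 to 0.195) and 0.327 (0.207 to 0.491), and its TPM was 0.0850, 0.0764 and 0.189. The share of Myc in the summed TPM of the 3 paralogs was 74.6%, 77.1% and 70.6% in lines 66, 67 and 72, a mean of 74.1 ± 3.29 (SD, n = 3). Mycl took 25.3%, 22.8% and 29.2%. The ratio of Myc to Mycl was 2.95, 3.38 and 2.41, lowest in line 72, the line highest in Mycl. Bmyc, which shares 0.149% of the words of Mycl, had 306, 183 and 311 counts and was not part of these sums.

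Max, the partner that all Myc and Mxd proteins need, was the second highest gene in TPM. In CPM it was below Klf4 and Mycl, and by the most counted transcript with Myc-201 and Myc-205 added up it was below Myc and Klf4. The gene (ENSMUSG00000059436.13, GRCm38 chr12:76937269-76962201, minus strand) had 45.0 TPM in line 66, 50.1 in line 67 and 47.9 in line 72, a mean of 47.7 ± 2.55 (SD, n = 3), and its highest line was 1.11 times its lowest, the smallest spread of the 10. Max-201, with a coding sequence of 453 bases, held 69.0%, 66.8% and 60.6% of the counts. Max-202, which has 480 coding bases, held 26.7%, 26.8% and 34.7%, the highest share being in line 72, although only 45 and 32 words of 31 bases tell these transcripts from the others. Myc exceeded Max in 3 of 3 lines, by 1.37, 1.40 and 1.46 times in TPM. The difference was 0.48 ± 0.05 on the log2(TPM + 1) scale (SD, n = 3), with p = 0.25 in a two-sided exact sign-flip test, again the smallest possible. With only the most counted transcript of each gene, Max-201 stood above Myc-204, at −0.22 on the same scale. That reversal came from listing 1 sequence under 2 names, since Myc-201 and Myc-205 added up to 27.3, 34.1 and 30.8 TPM, above the 25.6, 27.1 and 24.5 of Max-201 in each line (0.24 on the same scale). Per coding kilobase the direction was the opposite in each line, with 6986, 7060 and 7277 counts for Max, whose coding sequence is short, and 4308, 4542 and 4663 for Myc. The Myc paralogs together had 1.83, 1.81 and 2.07 times the TPM of Max.

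The repressors Mxi1, Mxd3 and Mxd1 were each lower than Max in every line. Mxi1 (ENSMUSG00000025025.14, GRCm38 chr19:53310518-53375810, plus strand), also known as Mxd2, had 8.91, 10.7 and 8.87 TPM, a mean of 9.51 ± 1.07 (SD, n = 3), with line 67 the highest. Mxi1-203 held 58.0%, 60.0% and 75.4% of its counts and Mxi1-201 held 23.5%, 22.3% and 12.9%, so line 72 differed in this split from the others. Mxi1-203 is told from other listed transcripts by 45 words.

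Mxd3 (ENSMUSG00000021485.14, GRCm38 chr13:55325168-55329823, minus strand), a repressor known from proliferating progenitors, had 4.10 TPM in line 66, 6.61 in line 67 and 6.33 in line 72. Its mean was 5.68 ± 1.38 (SD, n = 3), and line 66 lay apart below the others. Mxd3-201 held 70.8%, 69.0% and 76.2% of the counts, and the retained-intron transcript Mxd3-204 held 13.5%, 17.7% and 12.8%. Mxd3 overlaps Prelid1 on the opposite strand, which had 188, 205 and 217 TPM and shares 3.08% of the words of Mxd3. The library kit kept strand, but whether the counting used it is not given in the sources used here. Of the words of Mxd3, 96.0% occur in no other listed gene, and the rest are shared with 2592 genes, Prelid1 among them. The Mxd3 level is uncertain to that extent.

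Mxd1 (ENSMUSG00000001156.9, GRCm38 chr6:86647042-86669161, minus strand), the Mad1 repressor that is known to rise as cells leave the cycle, had 2.65, 1.86 and 3.31 TPM in lines 66, 67 and 72. The mean was 2.61 ± 0.724 (SD, n = 3), with line 72 the highest. Mxd1-201 held 89.9%, 98.6% and 94.5% of the counts, and Mxd1-203, a short nonsense-mediated decay transcript, held 8.85%, 0.358% and 4.96%. The latter gave 38.6%, 2.27% and 25.5% of the gene's TPM, so the low TPM of line 67 moved with the assignment to it. In Mxd1-201 alone the lines had 1.58, 1.78 and 2.44 TPM. The median gene of chromosome 6 was also 0.154 higher in line 72 than in the other lines on the log2 scale, against at most 0.0676 in size on the other chromosomes of the 10 genes in that line, and its part in the Mxd1 values was not tested.

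**Figure D3:**
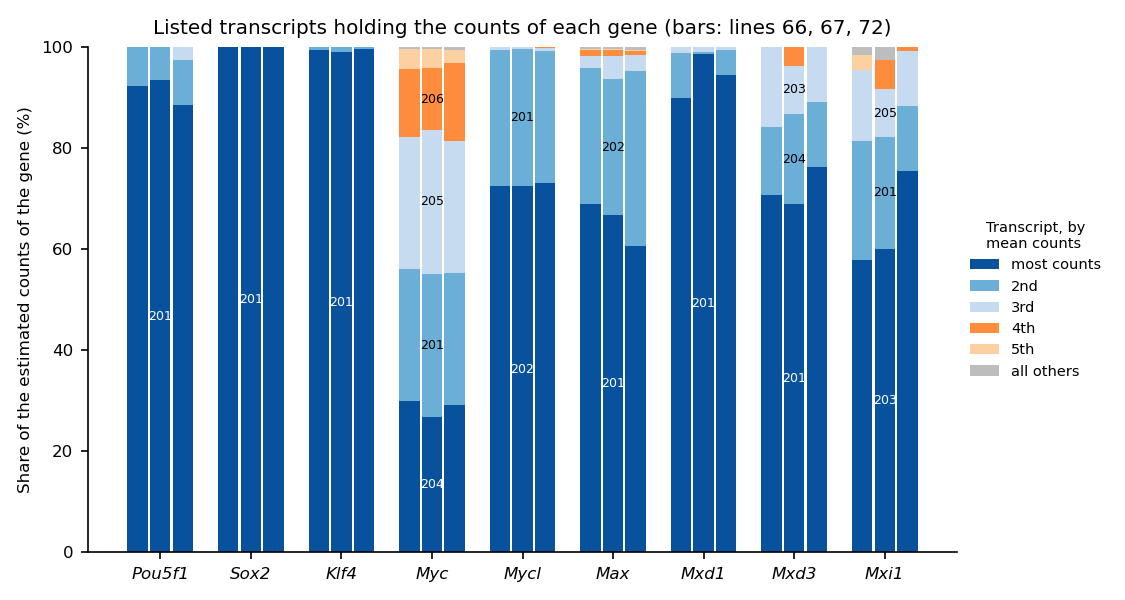
Share of each gene's estimated counts, in percent, held by its listed transcripts, with 1 bar for each of lines 66, 67 and 72 in that order and colours by rank of mean counts (numbers name the transcript). Pou5f1, Sox2, Klf4 and Mxd1 are held mainly by 1 transcript, and Myc has no listed transcript above 30.1%. Myc-201 and Myc-205 are 1 sequence under 2 names and together hold 52.1%, 56.8% and 52.1%.

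Other partners of Max filled much of the repressor side. Of 6 listed partners of Max or of its relative Mlx that are not among the 10 genes, 4 were at 10 TPM or more in every line. Mlx, a Max-like partner, had a mean of 40.7 TPM and Mxd4, a further repressor of the Mxd family, 24.8. The lowest were Mlxip (7.63) and Mlxipl (0.191), the glucose-sensing partners of Mlx. Mxd1, Mxd3, Mxi1 and Mxd4 summed to 39.6, 40.4 and 47.9 TPM, of which Mxd4 took 60.5%, 52.4% and 61.4% and the 3 others the rest. With Mnt and Mga, which also pair with Max, the sum was 79.8, 78.6 and 86.1 TPM, close to the 82.4, 90.9 and 99.3 TPM of the Myc paralogs. This sum was below that of the paralogs in each line, although the ranges over lines overlapped. In CPM the direction was the opposite, with 227, 214 and 242 for these partners and 130, 143 and 159 for the paralogs.

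In order of mean level the 10 genes were Myc, Max, Klf4, Mycl, Pou5f1, Mxi1, Mxd3, Sox2, Mxd1 and Mycn. For 6 of the 9 neighbouring pairs every line of the higher gene was above every line of the lower. The 3 exceptions were Klf4 and Mycl, Pou5f1 and Mxi1, and Mxd3 and Sox2, whose line ranges overlapped. Within lines, Mxd3 was above Sox2 in 3 of 3, and the other pairs kept their order in 2 of 3. By the most counted transcript Sox2 stood above Mxd3. In CPM 5 of the 9 neighbouring pairs did not overlap, with Max below Klf4 and Mycl, Mxi1 above Pou5f1, and Mxd1 above Sox2 and Mxd3. Line 66 was the lowest of the 3 for 5 of the 10 genes in TPM and for 8 in CPM, and the highest for none in either. Over the 12528 genes with at least 1 TPM on average, line 66 was the lowest for 44.2% in TPM and 41.8% in CPM, and the highest for 29.8% and 32.8%.

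The libraries were compared with each other for every gene with enough reads, the 10 genes among them. A Pearson chi-square test compared the counts of each gene over the 3 libraries with the shares set by library totals, for the 12528 genes whose mean reached 1 TPM. It compares these libraries, not conditions. With Benjamini-Hochberg adjustment it called 7 of the 9 genes that passed that minimum, against 80.2% of all genes tested, and Mycn did not reach the minimum. Pou5f1 (adjusted p = 0.151) and Sox2 (adjusted p = 0.0682) were the 2 not called, and a miss does not show that their lines were equal. Klf4 had the largest statistic of the 9 (adjusted p = 1.57e-108), followed by Mycl (adjusted p = 3.26e-56), with Max at adjusted p = 9.32e-05. With a line left out, fewer of all genes were called too. Without line 66, 4 of the 9 were called against 55.5% of all genes tested, and Myc (adjusted p = 0.301), Max (adjusted p = 0.550) and Mxd3 (adjusted p = 0.850) no longer were. Without line 67, 7 were called against 67.1%, with Mxi1 lost (adjusted p = 0.609) and Sox2 called (adjusted p = 0.0366). Without line 72, 5 were called against 65.1%, with Mycl (adjusted p = 0.715) and Mxd1 (adjusted p = 0.705) lost.

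By size, 3 of the 9 had a highest line over 1.5 times the lowest in TPM, against 19.7% of all genes tested. They were Mxd1 (1.78), Klf4 (1.68) and Mxd3 (1.61), and the median over the 9 was 1.23, beside 1.22 over all 12528. Mycl followed with 1.40. In CPM the ratio of Mxd1 was 1.43, under that limit, and those of Klf4 and Mxd3 were 1.69 and 1.51. No gene of the 9 was over 2-fold apart, while Mycn, with 6 to 23 counts, had a ratio of 2.47. With all genes of at least 1 estimated count on average, which takes in Mycn, 8 of the 10 were called by the chi-square test, against 51.4% of all genes, and 4 of the 10 were over 1.5-fold apart, against 47.4%. Of the 5 genes with a mean of 10 TPM or more, 4 were called by the chi-square test, against 85.4% of all such genes, and Klf4 alone was over 1.5-fold apart, against 9.79%. Without line 67 only Mxd3 of the 9 was over 1.5-fold apart (1.54), against 12.1% of all genes, and the same held without line 72 (1.61), against 11.7%. Without line 66 only Klf4 (1.68) and Mxd1 (1.78) were, against 9.12% of all genes.

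**Figure D4:**
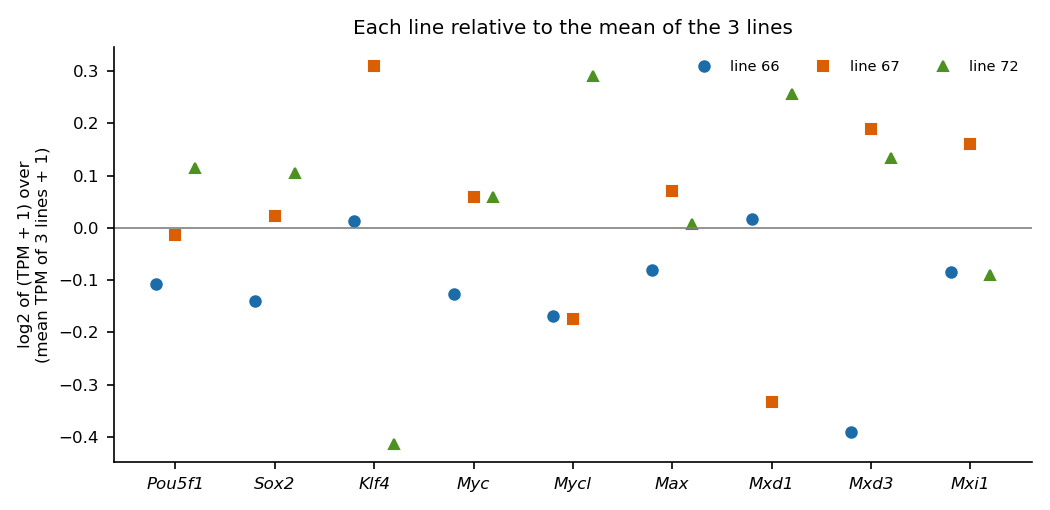
Level of each line relative to the mean of the 3 lines, as log2 of (TPM + 1) over (mean TPM + 1), for the 9 genes above 1 TPM. Klf4 is highest in line 67 (0.31) and lowest in line 72 (−0.41), Mycl is highest in line 72 (0.29), and Mxd3 is lowest in line 66 (−0.39).

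Genes that act with Myc were measured beside it. All 15 cofactors, among them Trrap and Kat5 of the acetyltransferase complexes that Myc recruits, were at 10 TPM or more in every line, with a median of 48.4. Ruvbl2 (110), a chromatin remodelling subunit, and Paf1 (102), of a complex that travels with RNA polymerase II, were the highest, and Mycbp2 (13.7) and Zbtb17 (18.3), the Miz1 factor through which Myc represses genes, the lowest. Of 14 genes that control Myc protein turnover, 13 were at 10 TPM or more in every line. The exception, Fbxw7, the ubiquitin ligase subunit that marks phosphorylated Myc for destruction, had 8.18, 8.72 and 10.9 TPM and the lowest mean of the list, followed by Fbxl14 (18.9). Stub1 (120) and Usp7 (110) were the highest. Aurka, a mitotic kinase that binds N-Myc, had 39.3, 56.2 and 63.8 TPM. Line 66 was thus the lowest, as it was for Myc and for 44.2% of the 12528 genes with at least 1 TPM on average.

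Of 28 textbook Myc target genes, 27 were at 10 TPM or more in every line, with a median of 142 TPM. Npm1 (3095) and Ncl (968), which encode nucleolar proteins of ribosome production, were the highest. Tert, the telomerase catalytic subunit, was the exception with a mean of 2.56, and Polr1b, an RNA polymerase I subunit, was the next lowest with 27.9. Ccnd2, encoding cyclin D2, had 266, 196 and 312 TPM, 1.59-fold apart, with line 67 the lowest although it was among the 2 highest for Myc. Of the 28, 26 differed between libraries beyond counting noise, beside 80.2% of all genes, and 1 was over 1.5-fold apart, beside 19.7%. The list's median ratio of highest to lowest line was 1.14, and that of all genes tested was 1.22. Most of the list was at 10 TPM or more, and all genes with such a mean had a median ratio of 1.18. Of those genes, 85.4% were called and 9.79% were over 1.5-fold apart. These levels in a single condition do not show how much of each depends on Myc.

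**Figure D5:**
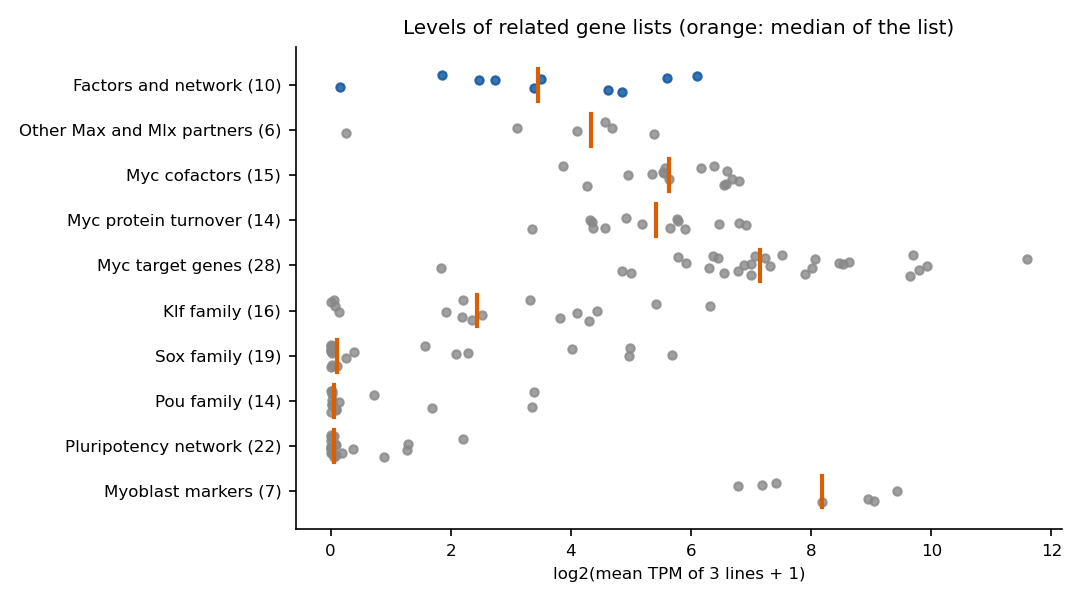
log2(mean TPM of 3 lines + 1) of each gene (points) and the median of each list (orange), with the number of genes in parentheses. Myc target genes (median 142 TPM) and myoblast markers (288) have medians to the right of that of the 10 genes, with single points overlapping, and the Sox, POU and pluripotency lists have medians near 0.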

How the data were processed

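Libraries were made from poly-A RNA with a stranded kit, and per the labels the submitters' processing notes name bcl2fastq 2.20, fastp 0.20, kallisto 0.46.1 and GRCm39. The authors deposited, for each line, estimated counts (expected counts, split over transcripts that share reads) and TPM per transcript. Both were summed per gene after matching identifiers without version to GENCODE M21 (GRCm38), which named 120686 of 121798 transcripts. The 1112 others held 0.493% to 0.535% of the counts. Coordinates are GRCm38. CPM used library totals. Line differences were tested with a chi-square test (scipy 1.17.1, mean of at least 1 TPM), and ratios with an exact sign-flip test and a pseudocount of 1. TMM (edgeR 4.0.16) and DESeq2 1.42.0 size factors were alternatives. With either, 7 of the 9 genes were called, against 79.9% of all genes tested. Only Klf4 and Mxd3 were then over 1.5-fold apart, against 17.9% of all genes, with Mxd1 at 1.39 (TMM) and 1.40 (DESeq2). A word is a run of 31 bases, read on both strands. The genes and lists were chosen with earlier results of these data known. Named in the text were all 10 genes, transcripts of Pou5f1, Sox2, Klf4 and Myc with 1% or more of the counts, the top 2 of the others, and per list the 2 highest, 2 lowest and any at 10 TPM or more over 1.5-fold apart (ties at 0 in part, and marker lists by counts). Nanog, Zfp42, Dppa4, Sall4, Mnt, Mga, Trrap, Kat5 and further transcripts were named after their values were seen. Protein sequences and non-chimeric cells were not analysed here.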

Additional observations from a re-analysis of the deposited data

How the results depend on the processing

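No paired analysis was possible because there is 1 group, with no second one whose samples could share line numbers. Depth limits Mycn to 6 to 23 counts, and transcript splits of Myc, Max and Mxi1 rest on few words, so they are less firm than gene sums. In CPM the Myc share of its paralogs was 61.0%, and by the most counted transcript alone it was 56.5%, with Myc represented by Myc-204, since Myc-201 and Myc-205 are 1 sequence under 2 names. That last setting turned the log2 ratio of Myc to Max to −0.22, moved Sox2 to Pou5f1 per coding kilobase to 0.956 and Myc to Pou5f1 to 3.21. With the 2 names added up, an alternative chosen after seeing the data, these Myc values were 64.5%, 0.24 and 5.995. The log2 ratio of Pou5f1 to Sox2 was 0.50 by the most counted transcript and 0.29 in CPM. As ratios of TPM the Klf4, Sox2 and Myc ratios to Pou5f1 were 2.74, 0.440 and 6.55. With a mean of at least 10 TPM, 5 of the 10 genes were tested and 4 of them called beyond counting noise (85.4% of all genes), and 1, Klf4, was over 1.5-fold apart (9.79% of all). With a fold of 2, 0 were, by the ratio of highest to lowest line, which is no test. Leaving out a line gave 4 to 7 called (4 without line 66, where Myc, Max and Mxd3 were no longer called), while the share of all genes called was 55.5% without line 66, 67.1% without 67 and 65.1% without 72, and 1 to 2 over 1.5-fold apart (1, Mxd3, without line 67 or without line 72, where 12.1% and 11.7% of all genes were). Leaving out a line gave Myc shares of 72.6% to 75.8%, log2 ratios of 0.46 to 0.51 for Myc to Max and 1.01 to 1.05 for Pou5f1 to Sox2, and coding ratios of 5.64 to 6.87 (Klf4), 0.832 to 0.895 (Sox2) and 9.91 to 10.4 (Myc). Of the levels of single genes, 8 moved by more than 1 SD in CPM, 4 with a pseudocount of 0.1 and 6 by the most counted transcript. Leaving out 1 of 3 lines cannot move a mean by 1 SD, so it says nothing of their stability.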

Other observations

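Among genes of the pluripotency list that were counted but not named above, Trim71 and Lin28b stood out by line and were chosen after their values were seen. Trim71, an RNA-binding ubiquitin ligase of early development, had 1461 counts (2.80 TPM) in line 66, 175 (0.362) in line 67 and 513 (1.05) in line 72. Lin28b, which blocks let-7 microRNA maturation, had 380, 54.0 and 51.0 counts in the same order. Both were highest in line 66. Sox8, a SoxE factor chosen in the same way, had 1.85, 2.91 and 6.81 TPM, highest in line 72. Trim71 and Sox8 differed between libraries beyond counting noise, as did 80.2% of all genes tested. So did all 3 tested genes of the pluripotency list and all 7 tested Sox genes. Since Trim71 and Sox8 were picked by their values, the call adds nothing about them. Lin28b, under 1 TPM on average, was not tested.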
